A study of Caenorhabditis elegans with 12 samples.

Results

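Adult Caenorhabditis elegans fed desiccated bovine thymus were compared with worms fed a cytoplasmic extract of bovine thymus, to ask which messenger RNAs differ between the desiccated gland and the extract. The comparison used 6 of the 12 libraries of the series, 3 of each diet, chosen by the diet in the sample titles. Every gene with enough counts entered the test, which was 14610 of the 46929 genes in the table. The other libraries were 3 of a control, used here as a reference level, and 3 of a nuclear extract of the gland, which entered only the shared estimate of spread. Worms of all groups were raised on nematode growth medium with live bacteria, spelled OPS0 in the labels, until the L4 larval stage, and the diets began on day 1 of adulthood, which the labels call day 4 of life. The labels name the diets ThymusFD, Thymex and ThymusPMG without tying those names to the groups, and the sources used here do not give strain, dose, age at collection or what the control was fed. RNA came from whole tissue, so all cell types of the worm are in each library.

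The worm's intestine digests bacteria, takes up amino acids, peptides and metals, stores fat and makes yolk, and many genes of lipid handling, detoxification and defence are active there. In fasting, the nuclear receptor NHR-49 induces genes of fatty acid oxidation such as acs-2. In fed animals SBP-1, the homolog of the mammalian factor SREBP, drives fatty acid synthesis and desaturation.

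Deposited counts per library ran from 23105256 to 33447280. Ribosomal RNA genes took 14% of the counts in desiccated thymus replicate 3 and 0.377% to 2.16% in the other libraries. Levels are given as CPM, counts per 1e6 of a library total scaled by its TMM factor, which was 0.874 in that library. Of the genes that define the tissues, all markers of intestine, hypodermis, muscle, pharynx, neurons, germline, oocytes and early embryos had counts, and 1 of 37 sperm genes had no count in any library.

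Few genes separated the diets. Of 14610 tested genes, 154 differed (1.05%), of which 99 were higher (0.678%) and 55 lower (0.376%) with desiccated thymus (edgeR's quasi-likelihood test with Benjamini-Hochberg adjusted p under 0.05). Among called genes that averaged at least 5 CPM in the higher diet, the largest differences were in clec-174, a C-type lectin gene, and Y47H9C.1, both higher with desiccated thymus, and acs-2, an acyl-CoA synthetase gene of fasting, lower with it. M05D6.10, a pseudogene, and F54D8.10, named after their values were seen, differed by more than acs-2, at -3.28 (adjusted p = 0.0361) and -3.24 (adjusted p = 0.0322), but were under 1 CPM in every library of both diets; each lost its call without any 1 of these 6 libraries, and M05D6.10 also without nuclear extract replicate 2 or 3 (0.0502 to 0.142 over both genes). Most differences were small: 38 genes reached 2-fold, 22 higher and 16 lower, and the median was 1.62-fold among the higher and 1.58-fold among the lower genes. The called genes comprised 147 protein-coding genes, 5 pseudogenes and 2 non-coding RNA genes. In all 154, the 3 libraries of one diet lay apart from the 3 of the other, as they did for 16.9% of all tested genes. At an unadjusted p under 0.05, 9.38% of genes differed.

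The count depended on single libraries and, for its balance of directions, on scaling. With libraries scaled by their totals only, 49 genes were higher and 85 lower, so that the share of higher genes among those called was 36.6% instead of 64.3%. The count fell to 26 without cytoplasmic extract replicate 2, to 38, 50 and 60 without desiccated thymus replicates 3, 1 and 2, and to 74 and 79 without cytoplasmic extract replicates 1 and 3, and it was 269 without control replicate 1. All 154 genes kept their direction in every one of these fits. In none of them did the libraries of the diets overlap, so leaving out 1 library could hardly reverse a direction. The kept direction is therefore no test of the calls. A core of 19 genes, 10 higher and 9 lower, kept an adjusted p under 0.05 whichever of the 12 libraries was left out: clec-41, klf-3, kola-5, odd-2, F08F3.4, F15E6.6, F20G2.5, F56F10.1, R09B5.11 and Y16B4A.2 among the higher and glt-5, crtc-1, math-27, fbxl-1, mfb-1, F25E5.8, F48D6.4, T28B8.1 and Y94H6A.10 among the lower. The exons of fbxl-1 overlap henn-1 and rfs-1 on the same strand. henn-1 had more counts than fbxl-1 itself (means of 1827 and 1587), so the value of fbxl-1 is uncertain.

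**Figure D1:**
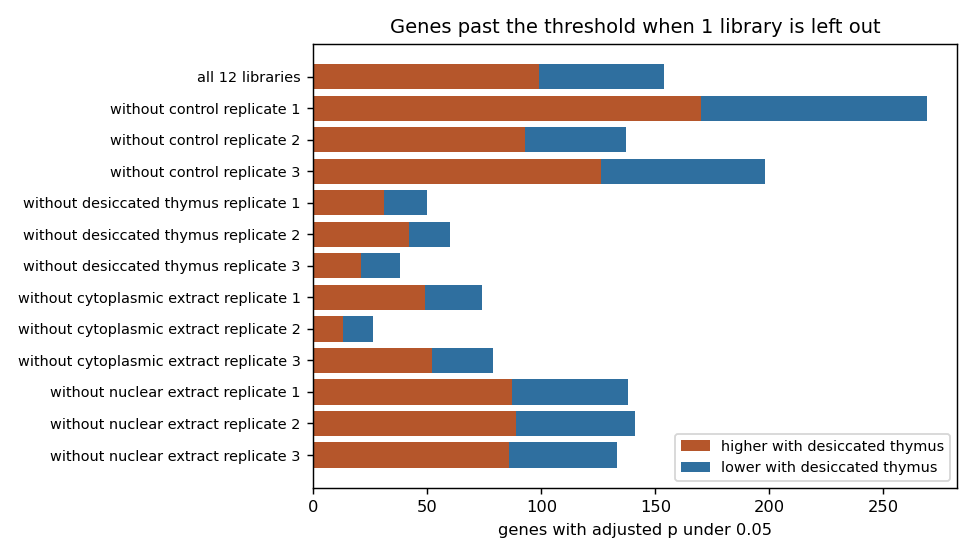
Number of genes with an adjusted p under 0.05 (x axis) in the fit of all 12 libraries and in each fit with 1 library left out (y axis), split into genes higher and genes lower with desiccated thymus. The full fit gives 154 genes, and the fits without a library of either diet give 26 to 79.

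**Figure D2:**
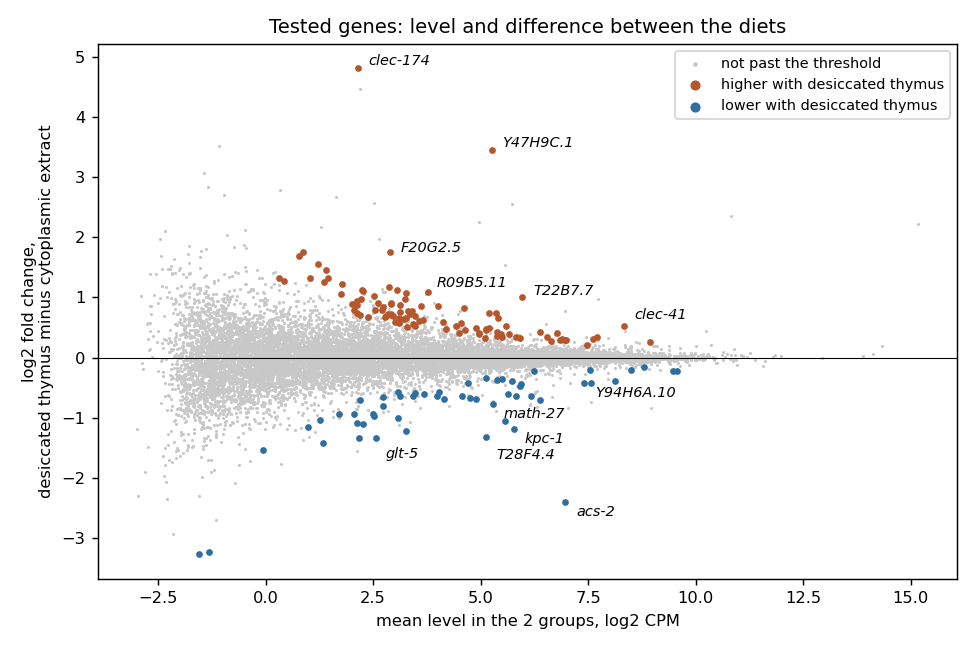
Each point is 1 of 14610 tested genes, by its mean level in both diets (x axis, log2 CPM) and its log2 fold change, desiccated thymus minus cytoplasmic extract (y axis). The 99 higher and 55 lower genes are coloured, and clec-174 (4.81), Y47H9C.1 (3.45) and acs-2 (-2.40) lie farthest out among the labelled genes.

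Genes of fatty acid oxidation and of fat synthesis each held 1 called gene, and the called genes lay in opposite directions. The medians of these lists did not, at 0.05 and 0.06. The acyl-CoA synthetase gene acs-2, which feeds fatty acids into mitochondrial oxidation and is a standard marker of fasting, was 5.26-fold lower with desiccated thymus. The gene of SBP-1 was 1.32-fold higher. klf-3, a Krüppel-like factor gene known for its part in fat storage, was 2.18-fold higher.

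Levels of acs-2 (chromosome V, 15567394 to 15569897, WBcel235) were 41.2, 33.1 and 45.9 CPM with desiccated thymus, 159, 228 and 246 CPM with the cytoplasmic extract and 97.7, 110.04 and 149 CPM in the control. The 3 groups occupied separate ranges, with the cytoplasmic extract above the control and desiccated thymus below it. The difference between the thymus diets was -2.40 on the log2 scale (SE 0.37, adjusted p = 0.0281). Against the control, acs-2 differed by -1.57 (adjusted p = 0.0612) for desiccated thymus and by 0.83 (adjusted p = 0.379) for the cytoplasmic extract, so neither diet alone passed against the control, from which 3.94% and 0.65% of all tested genes differed, respectively. These differences from the control, here and in what follows, share the same 3 control libraries. The call between the diets was lost without control replicate 2 and without any 1 of the 6 libraries of both diets, with adjusted p of 0.0501 to 0.134.

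Of 39 tested genes of fatty acid oxidation and fasting, none was higher and only acs-2 was lower (2.56%, against 0.376% of all tested genes). The median log2 fold change was 0.05 over the list, beside -0.00 for all tested genes. The next members by p were ech-1.1, which encodes an enoyl-CoA hydratase, at 5.92 ± 0.663 CPM with desiccated thymus and 4.13 ± 0.0995 CPM with the cytoplasmic extract (log2 fold change 0.52, adjusted p = 0.115), and acox-1.5, an acyl-CoA oxidase gene, at 27.5 ± 1.22 CPM with desiccated thymus and 16.6 ± 2.42 CPM with the cytoplasmic extract (log2 fold change 0.73, adjusted p = 0.152). Both had higher means with desiccated thymus, unlike acs-2.

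Of 26 genes of fatty acid synthesis, elongation and desaturation, 1 was higher (3.85%, against 0.678% of all tested genes). None was lower, and the median was 0.06 (-0.01 with library totals only). sbp-1 stood at 49.7, 51.1 and 49.6 CPM with desiccated thymus, 38.7, 40.6 and 34.9 CPM with the cytoplasmic extract and 34.1, 43.3 and 36.0 CPM in the control. Its difference was 0.40 on the log2 scale (SE 0.08, adjusted p = 0.0322), and the cytoplasmic extract lay within the range of the control. An exon of sbp-1 overlaps idpc-1 on the opposite strand, and the sources used here do not give the strand setting of the counting, which makes its value uncertain. The call was lost without any 1 of the 6 libraries of both diets, with adjusted p of 0.0683 to 0.143, and with library totals only (0.135) and in the 9 libraries without the nuclear extract (0.0573). The stearoyl-CoA desaturase gene fat-7 and the palmitoyl-CoA desaturase gene fat-5, the next by p, differed by 0.32 (adjusted p = 0.303) and 0.39 (adjusted p = 0.343).

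klf-3 was at 6.07, 6.99 and 6.37 CPM with desiccated thymus, 3.29, 2.60 and 3.03 CPM with the cytoplasmic extract and 2.95, 3.59 and 2.48 CPM in the control. All 3 libraries of desiccated thymus were above the other 6. The difference was 1.12 on the log2 scale (SE 0.16, adjusted p = 0.00532), and against the control it was 1.1 (adjusted p = 0.00129) for desiccated thymus and -0.02 (adjusted p = 0.97) for the cytoplasmic extract.

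**Figure D3:**
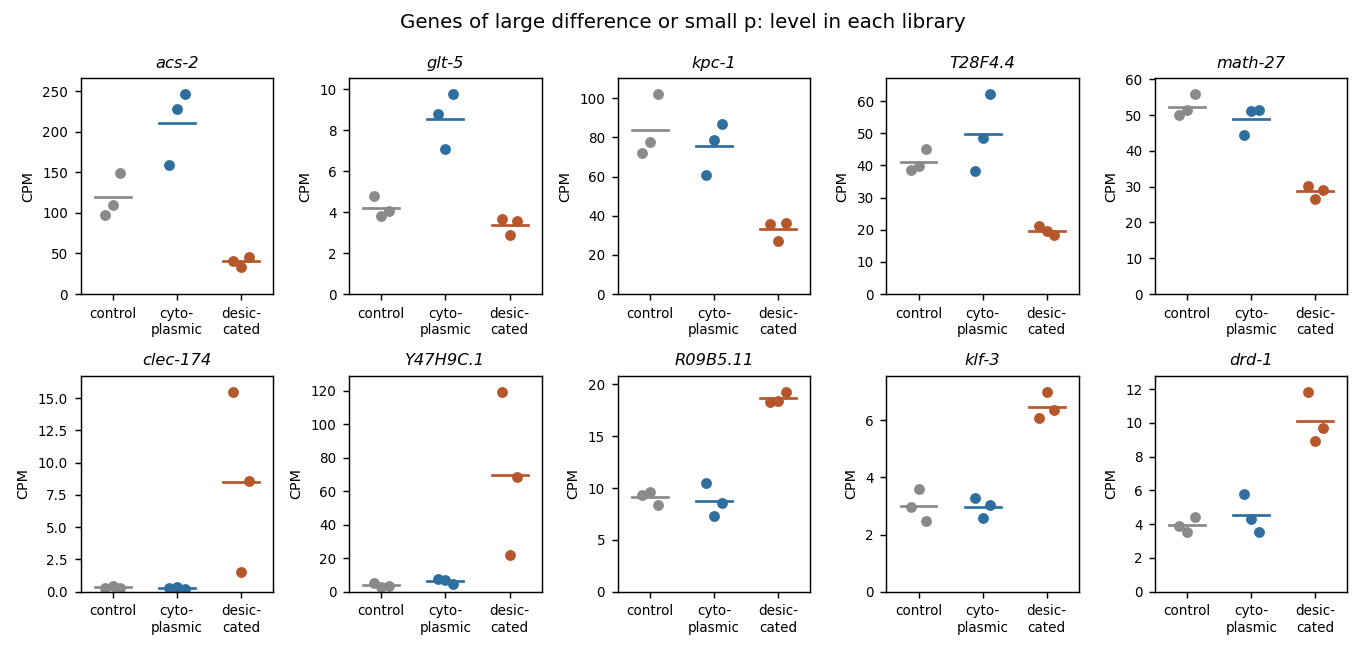
Level in each library (points; y axis, CPM, starting at 0) of 10 genes with a large difference or a small p, in the control, the cytoplasmic extract and desiccated thymus (x axis), with the mean of each group as a line. acs-2, glt-5, kpc-1, T28F4.4 and math-27 are lower with desiccated thymus, and clec-174 and Y47H9C.1 spread widely among its 3 libraries.

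Genes of the intestine were the list with the highest median, 0.34 over 20 tested members. Of these, 3 were higher with desiccated thymus and none was lower: pho-1, the gut acid phosphatase gene; pgp-1, which encodes a P-glycoprotein transporter of the gut's apical membrane; and elt-2, which encodes the GATA factor that maintains intestinal gene expression. The 3 higher genes were 15% of the list, against 0.678% of all tested genes. In sign, 19 of the 20 were positive, against 7136 of 14610 for all genes. The members were chosen with earlier results of these data known and were measured in the same libraries. These counts are therefore no test of the list. Without cytoplasmic extract replicate 2, no member passed. In bulk RNA, more cells of a type and more RNA per cell cannot be told apart.

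pho-1 stood at 12.35, 14.8 and 10.4 CPM with desiccated thymus, 7.83, 5.80 and 5.57 CPM with the cytoplasmic extract and 7.73, 8.04 and 6.88 CPM in the control, a difference of 0.97 on the log2 scale (SE 0.15, adjusted p = 0.00874). Its exons overlap EGAP2.1 on the opposite strand, which had more counts than pho-1 itself, so its value is uncertain. pgp-1 stood at 10.03, 8.07 and 9.79 CPM and 5.90, 4.99 and 6.13 CPM, against 4.11, 3.66 and 3.98 CPM in the control, a difference of 0.71 on the log2 scale (SE 0.13, adjusted p = 0.0163). elt-2 stood at 11.6, 11.8 and 10.52 CPM and 8.69, 5.77 and 7.25 CPM, against 7.33, 5.97 and 6.42 CPM in the control, a difference of 0.65 on the log2 scale (SE 0.15, adjusted p = 0.0484). In all 3 genes the libraries of desiccated thymus were the highest. The call of pho-1 was lost without cytoplasmic extract replicate 2 (adjusted p 0.0538), and that of pgp-1 without this library or desiccated thymus replicate 1 or 3 (0.0785 to 0.0889). elt-2, the closest of the 3 to the threshold, lost its call with library totals only (0.112), in the 9 libraries without the nuclear extract (0.0802) and in 9 left-out fits, all but those without control replicates 1 and 3 and cytoplasmic extract replicate 1 (0.0529 to 0.204).

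The other intestinal genes did not pass. Of these, 4 well-known members are given, chosen after their values were seen. The brush border gene eps-8 stood at 34.6, 36.2 and 34.2 CPM and 29.8, 23.8 and 25.8 CPM (adjusted p = 0.0774). The gut esterase gene ges-1 stood at 52.5, 51 and 58.5 CPM and 43.4, 45.9 and 46.1 CPM (0.185). The peptide transporter gene pept-1 stood at 19, 20.6 and 19.9 CPM and 14.7, 9.95 and 18.4 CPM (0.333), against 8.45, 9.89 and 8.33 CPM in the control. The intestinal actin gene act-5 stood at 109, 151 and 101 CPM and 92.1, 89.9 and 96.3 CPM (0.395). In each of the 4 the libraries of the diets did not overlap, as in 16.9% of all tested genes, and desiccated thymus was the higher. Since these 4 were picked with their values known, they do not speak for the other members. Over the 20 genes, the mean log2 CPM of a library was 4.73 to 4.88 with desiccated thymus, 4.33 to 4.57 with the cytoplasmic extract and 4.12 to 4.44 in the control. The summed level of 11 intestine markers, most of it from the yolk gene vit-2, was 17500 to 19700 CPM with desiccated thymus and 17500 to 18000 with the cytoplasmic extract, and its part in the result was not tested.

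Of 6 vitellogenin genes, which encode the yolk proteins made in the intestine, none passed, all had positive signs and the median was 0.15. vit-4 and vit-6, those of smallest p, differed by 0.43 (adjusted p = 0.297) and 0.20 (adjusted p = 0.413).

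Among 25 genes of nucleoside, peptide and amino acid transport, 2 were higher, 1 was lower and the median was 0.01 (-0.06 with library totals only). These shares were 8% and 4%, against 0.678% and 0.376% of all tested genes. aat-6 and aat-7, which encode amino acid transporter catalytic subunits, were the higher genes, and glt-5, a glutamate transporter gene, was the lower. aat-6 stood at 7.42, 6.62 and 4.62 CPM with desiccated thymus, 3.25, 2.87 and 3.36 CPM with the cytoplasmic extract and 2.59, 3.30 and 2.26 CPM in the control (log2 fold change 0.98, SE 0.20, adjusted p = 0.0269). aat-7 stood at 2.08, 3.04 and 2.68 CPM and 1.21, 0.506 and 0.71 CPM, against 0.598, 0.659 and 0.191 CPM in the control (log2 fold change 1.68, SE 0.36, adjusted p = 0.0369). Both genes were above the control in all 3 libraries of desiccated thymus. The call of aat-6 was lost without desiccated thymus replicate 1 or 2 or any 1 library of the cytoplasmic extract (0.075 to 0.153). That of aat-7 was lost without any 1 library of desiccated thymus, cytoplasmic extract replicate 2 or 3, or nuclear extract replicate 1 or 3 (0.0511 to 0.179), and in the 9 libraries without the nuclear extract (0.0783).

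glt-5 (chromosome II, 9706481 to 9708885) stood at 3.67, 2.87 and 3.55 CPM with desiccated thymus, 8.81, 7.08 and 9.75 CPM with the cytoplasmic extract and 4.78, 3.79 and 4.05 CPM in the control. Here the cytoplasmic extract stood farther from the control than desiccated thymus did. The difference between the diets was -1.34 on the log2 scale (SE 0.16, adjusted p = 0.00138), and against the control it was -0.32 (adjusted p = 0.36) for desiccated thymus and 1.02 (adjusted p = 0.00694) for the cytoplasmic extract. slc-36.5, of the SLC36 family of proton-coupled amino acid transporters, was outside that list and also lower, at 2.56 ± 0.736 CPM with desiccated thymus and 6.52 ± 1.43 CPM with the cytoplasmic extract (log2 fold change -1.33, SE 0.27, adjusted p = 0.0301). Its call was lost without any 1 library of the cytoplasmic extract, replicate 2 or 3 of desiccated thymus or nuclear extract replicate 3 (0.0508 to 0.141).

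**Figure D4:**
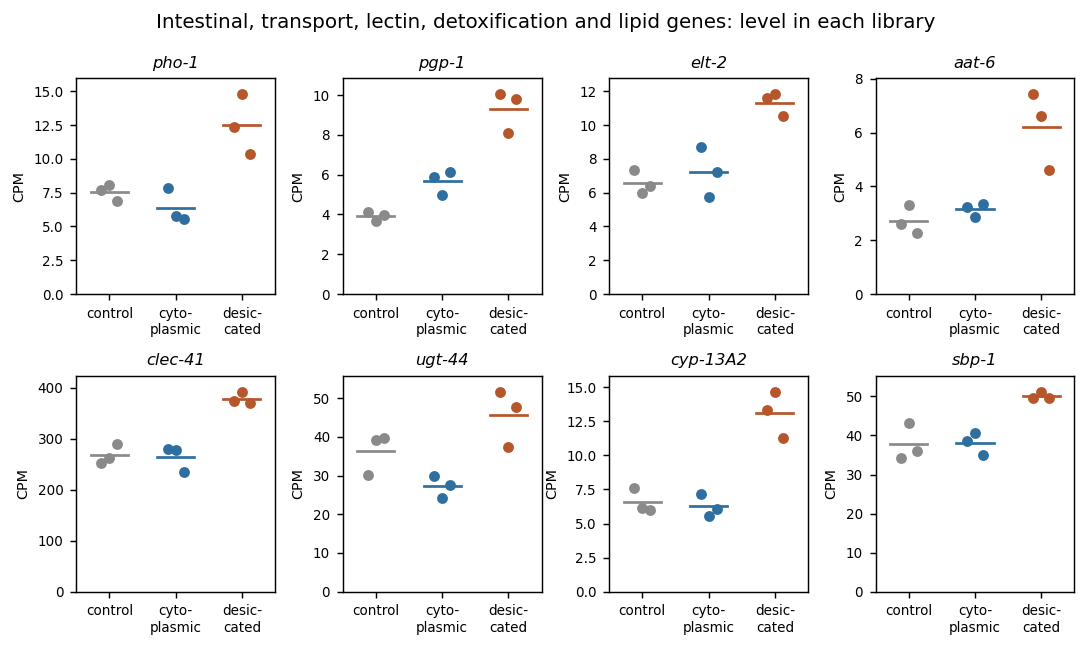
Level in each library (points; y axis, CPM, starting at 0) of 8 genes higher with desiccated thymus, in the control, the cytoplasmic extract and desiccated thymus (x axis), with the mean of each group as a line. The 3 libraries of desiccated thymus lie above those of the cytoplasmic extract in all 8, and for ugt-44 they overlap the control.

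C-type lectins bind sugars, and in the worm many are secreted from gut cells and respond to microbes. Of 113 tested C-type lectin genes, 3 were higher with desiccated thymus (2.65%, against 0.678% of all tested genes). None was lower, and the median was 0.14. The higher genes were clec-41, clec-165 and clec-174, and in each the 3 libraries of desiccated thymus lay above those of the cytoplasmic extract.

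clec-41 stood at 374, 392 and 371 CPM with desiccated thymus, 280.2, 279 and 234 CPM with the cytoplasmic extract and 252, 263 and 289 CPM in the control (log2 fold change 0.52, SE 0.07, adjusted p = 0.00784). The libraries of desiccated thymus were tight and above the other 6. clec-165 stood at 3.78, 4.20 and 3.83 CPM and 0.869, 1.85 and 1.98 CPM (log2 fold change 1.32, SE 0.26, adjusted p = 0.0244). It overlaps F38A1.9 on the same strand, which makes its value uncertain, and its call was lost without any 1 library of desiccated thymus or cytoplasmic extract replicate 1 or 2 (0.0617 to 0.105).

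clec-174 (chromosome IV, 3940259 to 3941708) stood at 15.5, 1.54 and 8.54 CPM with desiccated thymus, 0.265, 0.405 and 0.224 CPM with the cytoplasmic extract and 0.319, 0.429 and 0.306 CPM in the control. The 3 libraries of desiccated thymus were all above the other 6, and they differed widely among themselves. The difference was 4.81 on the log2 scale (SE 0.79, adjusted p = 0.0279), or 28.1-fold. Without desiccated thymus replicate 1, the highest library, it was 4.05 (adjusted p 0.0253). The call was lost without control replicate 2, desiccated thymus replicate 3, nuclear extract replicate 2 or 3, or any 1 library of the cytoplasmic extract (0.0502 to 0.14), and in the fits of only the 6 libraries (0.223) and of the 9 without the nuclear extract (0.09).

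Of 28 genes of the responses to infection, none was lower, the median was 0.17 and 1 was higher (3.57%, against 0.678% of all tested genes). It was pals-16, of the pals family that responds to intracellular pathogens, at 2.73, 2.79 and 3.32 CPM with desiccated thymus and 1.13, 1.18 and 1.2 CPM with the cytoplasmic extract (log2 fold change 1.33, SE 0.25, adjusted p = 0.0166). Its call was lost without any 1 of the 6 libraries of both diets (0.0538 to 0.0871). The family members pals-24 and pals-17 differed by 0.49 (adjusted p = 0.104) and 0.60 (adjusted p = 0.116). Of 12 galectin genes, which encode galactoside-binding lectins, none passed and the median was 0.13. lec-11, lec-10 and lec-8, those of smallest p, differed by 0.52 (adjusted p = 0.0794), 0.17 (adjusted p = 0.226) and 0.30 (adjusted p = 0.244).

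Called genes of detoxification families numbered 6 higher and 1 lower, and 4 higher and 3 lower with library totals only. Of all tested genes, 0.678% were higher and 0.376% lower, and with library totals only 49 were higher and 85 lower of 14610. UDP-glucuronosyltransferases attach a sugar to foreign and endogenous compounds, and 3 of 58 were higher, 1 was lower and the median was 0.05; with library totals only, 2 were higher, 3 were lower and the median was -0.03. Cytochrome P450 enzymes oxidize such compounds, and 1 of 55 was higher, none was lower and the median was 0.07 (-0.00 with library totals only). Of 39 glutathione S-transferase genes, 1 was higher (none with library totals only), none was lower and the median was 0.07. Of 53 ABC transporter genes, 1 was higher, the intestinal gene pgp-1 above, and none was lower, with a median of 0.05 (-0.02 with library totals only). The shares of higher genes in the families were 5.17%, 1.82%, 2.56% and 1.89%, in the order given. Of the UDP-glucuronosyltransferases, 1.72% were lower.

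ugt-44 stood at 51.5, 37.3 and 47.7 CPM with desiccated thymus and 29.8, 24.1 and 27.6 CPM with the cytoplasmic extract (log2 fold change 0.75, SE 0.13, adjusted p = 0.021), and the control at 30.1, 39.2 and 39.6 CPM overlapped desiccated thymus. ugt-48 stood at 5.60, 5.62 and 4.43 CPM and 2.87, 2.53 and 3.1 CPM (log2 fold change 0.88, SE 0.16, adjusted p = 0.0143), and both diets were above the control at 1.44, 1.62 and 1.41 CPM. Against the control, ugt-48 differed by 1.81 (adjusted p = 1.76e-05) for desiccated thymus and 0.92 (adjusted p = 0.0168) for the cytoplasmic extract, so it passed for both. ugt-62 was higher at 40.8 ± 2.92 CPM with desiccated thymus and 29.3 ± 3.24 CPM with the cytoplasmic extract (log2 fold change 0.48, SE 0.10, adjusted p = 0.0291), and ugt-11 was lower at 3.51 ± 0.359 CPM with desiccated thymus and 5.71 ± 0.609 CPM with the cytoplasmic extract (log2 fold change -0.70, SE 0.15, adjusted p = 0.0383). ugt-48 overlaps cft-1 on the opposite strand and is uncertain.

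The P450 gene cyp-13A2 stood at 13.3, 14.6 and 11.3 CPM with desiccated thymus, 7.14, 5.56 and 6.05 CPM with the cytoplasmic extract and 7.61, 6.13 and 5.96 CPM in the control (log2 fold change 1.07, SE 0.17, adjusted p = 0.00874). Only desiccated thymus stood away from the control. The next P450 genes, cyp-33C9 and cyp-25A1, differed by 0.69 (adjusted p = 0.143) and 0.69 (adjusted p = 0.166). gst-13, a glutathione S-transferase gene, was higher at 11.8 ± 1.68 CPM with desiccated thymus and 7.55 ± 1.22 CPM with the cytoplasmic extract (log2 fold change 0.65, SE 0.14, adjusted p = 0.0351). The call of cyp-13A2 was lost without cytoplasmic extract replicate 2 (0.0539) and ugt-48 lost its own without replicate 1 or 2 of either diet (0.053 to 0.0869). ugt-44 lost its call without replicates 1 or 3 of desiccated thymus or 2 or 3 of the cytoplasmic extract (0.0726 to 0.0961), and ugt-62 without any 1 of the 6 libraries of both diets (0.057 to 0.154). ugt-11 lost its call without those 6, control replicate 2 or nuclear extract replicate 3 (0.0503 to 0.188), and gst-13 without desiccated thymus replicate 1 or 2, any 1 library of the cytoplasmic extract or nuclear extract replicate 3 (0.0516 to 0.17). With library totals only, ugt-62 (0.089) and gst-13 (0.0902) also lost theirs, as did ugt-11 (0.0522) and gst-13 (0.0769) in the 9 libraries without the nuclear extract and ugt-44 with no filter on low counts (0.0566).

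Transcription factor genes appeared in both directions. egl-13, a SOX factor gene of uterine and neuronal fate, stood at 6.57, 7.82 and 5.22 CPM with desiccated thymus, 2.76, 2.70 and 3.63 CPM with the cytoplasmic extract and 2.67, 2.80 and 2.87 CPM in the control (log2 fold change 1.11, SE 0.18, adjusted p = 0.00874). fozi-1, a zinc finger factor gene of mesodermal fate, stood at 6.86, 8.40 and 7.89 CPM and 3.93, 4.08 and 3.4 CPM, against 2.91, 2.90 and 1.83 CPM in the control (log2 fold change 1.02, SE 0.18, adjusted p = 0.0119). For both genes the libraries of desiccated thymus were the highest. The call of egl-13 was lost without cytoplasmic extract replicate 2 (0.0557), and fozi-1 lost its own without replicate 2 or 3 of either diet (0.0513 to 0.057).

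Nuclear hormone receptors are a family of ligand-regulated factors enlarged in nematodes. Of 182 of their genes, 2 were higher (1.1%), 1 was lower (0.549%) and the median was -0.02. These shares were near those of all tested genes, 0.678% higher and 0.376% lower. nhr-43 stood at 8.21, 10.3 and 11.08 CPM with desiccated thymus, 5.75, 5.09 and 4.82 CPM with the cytoplasmic extract and 2.71, 3.56 and 3.17 CPM in the control (log2 fold change 0.92, SE 0.15, adjusted p = 0.0101). nhr-121 was higher at 8.92 ± 1.17 CPM with desiccated thymus and 5.41 ± 0.902 CPM with the cytoplasmic extract (log2 fold change 0.72, SE 0.15, adjusted p = 0.0266), and nhr-64 was lower at 6.83 ± 0.708 CPM with desiccated thymus and 10.7 ± 0.486 CPM with the cytoplasmic extract (log2 fold change -0.64, SE 0.13, adjusted p = 0.0241). For nhr-43 the cytoplasmic extract also lay above all 3 control libraries. The call of nhr-43 was lost without desiccated thymus replicate 3 or cytoplasmic extract replicate 2 (0.0544 and 0.0564), nhr-121 lost its own without any 1 library of desiccated thymus or replicate 2 or 3 of the cytoplasmic extract (0.0559 to 0.128), and nhr-64 without any 1 of the 6 libraries (0.053 to 0.118).

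The remaining genes that were most raised with desiccated thymus mostly carry sequence names. Y47H9C.1 stood at 119.1, 22.2 and 68.3 CPM with desiccated thymus, 7.6, 6.95 and 4.67 CPM with the cytoplasmic extract and 4.98, 2.90 and 3.63 CPM in the control, so the libraries of desiccated thymus were the highest and the most spread. Its difference was 3.45 on the log2 scale (SE 0.60, adjusted p = 0.0391), and 2.82 without desiccated thymus replicate 1 (adjusted p 0.0838). The call held only without control replicate 1 or desiccated thymus replicate 2, and the other 10 left-out fits gave 0.0581 to 0.164. It was also lost in the fits of only the 6 libraries (0.209) and of the 9 without the nuclear extract (0.102). F20G2.5 stood at 14.9, 6.95 and 12.5 CPM and 3.33, 3.74 and 3.14 CPM, against 4.31, 5.47 and 5.35 CPM in the control (log2 fold change 1.75, SE 0.26, adjusted p = 0.00874).

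drd-1, named for its fall under dietary restriction, stood at 11.8, 8.90 and 9.69 CPM with desiccated thymus, 5.78, 4.28 and 3.51 CPM with the cytoplasmic extract and 3.87, 3.56 and 4.43 CPM in the control (log2 fold change 1.17, SE 0.19, adjusted p = 0.00874). F42G4.5 stood at 10.7, 11 and 12.37 CPM and 6.20, 4.25 and 5.12 CPM, against 4.82, 5.01 and 3.13 CPM in the control (log2 fold change 1.13, SE 0.19, adjusted p = 0.0119). T22B7.7 stood at 96.7, 64.1 and 89.2 CPM and 48, 40.5 and 36.2 CPM, against 34.4, 43 and 43.5 CPM in the control (log2 fold change 1.01, SE 0.18, adjusted p = 0.0389). In all 3 genes only desiccated thymus stood away from the control. The call of drd-1 was lost without cytoplasmic extract replicate 2 (0.0538), that of F42G4.5 without this library or desiccated thymus replicate 3 (0.0558 and 0.0646), and that of T22B7.7 in 8 left-out fits (0.0587 to 0.164), all but those without control replicate 1, desiccated thymus replicate 2 and nuclear extract replicates 1 and 3. T22B7.7 also lost it with library totals only (0.057), with no filter on low counts (0.0618) and in the fits of the 6 libraries (0.153) and of the 9 (0.0657).

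The higher genes of smallest p were Y16B4A.2, R09B5.11 and F08F3.4. Y16B4A.2 stood at 53.7, 54.5 and 44.3 CPM with desiccated thymus, 31.3, 30.2 and 30.3 CPM with the cytoplasmic extract and 26.9, 31.8 and 26.9 CPM in the control (log2 fold change 0.73, SE 0.09, adjusted p = 0.00116). R09B5.11 stood at 18.3, 18.3 and 19.2 CPM and 10.47, 7.32 and 8.52 CPM, against 9.37, 9.59 and 8.41 CPM in the control (log2 fold change 1.09, SE 0.14, adjusted p = 0.00173). F08F3.4 stood at 23.1, 18.2 and 20.7 CPM and 12.5, 10.4 and 11.3 CPM, against 7.81, 8.44 and 8.22 CPM in the control (log2 fold change 0.86, SE 0.12, adjusted p = 0.0049). For Y16B4A.2 and R09B5.11 the cytoplasmic extract overlapped the control, and for F08F3.4 it lay above it.

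Among the lower genes, kpc-1, which encodes a furin-like protease needed for dendrite branching, stood at 36.0, 27.2 and 36.2 CPM with desiccated thymus, 60.9, 78.8 and 87.0 CPM with the cytoplasmic extract and 72.3, 77.7 and 102 CPM in the control (log2 fold change -1.19, SE 0.19, adjusted p = 0.0244). oac-14, of a family of O-acyltransferase homologs, stood at 33.8, 28.7 and 29.6 CPM and 52.7, 66.7 and 72.7 CPM, against 50.5, 60.5 and 72.2 CPM in the control (log2 fold change -1.06, SE 0.14, adjusted p = 0.00981). T28F4.4 stood at 21.2, 19.6 and 18.4 CPM and 38.4, 48.6 and 62.1 CPM, against 38.5, 39.7 and 45.1 CPM in the control (log2 fold change -1.33, SE 0.18, adjusted p = 0.00987). In these 3 genes desiccated thymus was the lowest and the cytoplasmic extract overlapped the control. kpc-1 overlaps scrm-4 on the opposite strand and lost its call without any 1 library of desiccated thymus or cytoplasmic extract replicate 2 or 3 (0.077 to 0.0975), and in the fits of only the 6 libraries (0.0647) and of the 9 without the nuclear extract (0.0522). oac-14 lost it without desiccated thymus replicate 3 or cytoplasmic extract replicate 2 (0.0513 and 0.0516), and T28F4.4 without desiccated thymus replicate 3 (0.0505).

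For other lower genes the libraries of the cytoplasmic extract lay above those of the control. pgph-3, a phosphoglycolate phosphatase homolog, stood at 5.16, 6.12 and 5.63 CPM with desiccated thymus, 8.05, 11.3 and 14.6 CPM with the cytoplasmic extract and 4.38, 5.83 and 4.20 CPM in the control (log2 fold change -1.01, SE 0.21, adjusted p = 0.0361). Against the control it differed by 0.22 (adjusted p = 0.66) for desiccated thymus and 1.23 (adjusted p = 0.0156) for the cytoplasmic extract. Y4C6B.2 stood at 2.90, 2.29 and 3.97 CPM and 7.52, 4.82 and 7.29 CPM, against 3.35, 3.20 and 3.55 CPM in the control (log2 fold change -1.1, SE 0.22, adjusted p = 0.0244), and DH11.2 at 6.81, 4.12 and 6.37 CPM and 11, 16.36 and 13.2 CPM, against 7.65, 7.38 and 10.9 CPM (log2 fold change -1.23, SE 0.21, adjusted p = 0.0141). For DH11.2 desiccated thymus was also below the control. Against the control, Y4C6B.2 differed by -0.15 (adjusted p = 0.799) for desiccated thymus and 0.96 (adjusted p = 0.058) for the cytoplasmic extract. DH11.2 differed by -0.58 (adjusted p = 0.171) and 0.65 (adjusted p = 0.194), so neither gene passed. Leaving out any 1 library of desiccated thymus or cytoplasmic extract replicate 2 or 3 ended the call of pgph-3 (0.12 to 0.17). For Y4C6B.2 this held for replicates 1 and 2 of desiccated thymus and 1 and 3 of the cytoplasmic extract (0.0948 to 0.132), and for DH11.2 for replicate 3 of desiccated thymus and 2 of the cytoplasmic extract (0.0513 and 0.0633).

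Low-level genes that were lower with desiccated thymus included C25H3.10, F18E3.12 and ZK1290.14. C25H3.10 averaged 2.76 ± 0.399 CPM with desiccated thymus and 5.93 ± 0.494 CPM with the cytoplasmic extract (log2 fold change -1.09, SE 0.20, adjusted p = 0.0168). F18E3.12 averaged 3.90 ± 0.354 CPM with desiccated thymus and 7.63 ± 1.64 CPM with the cytoplasmic extract (log2 fold change -0.97, SE 0.18, adjusted p = 0.0184). ZK1290.14 averaged 3.84 ± 0.37 CPM with desiccated thymus and 7.39 ± 0.223 CPM with the cytoplasmic extract (log2 fold change -0.95, SE 0.16, adjusted p = 0.00987). Their calls were lost in 4, 5 and 2 of the left-out fits, with adjusted p of 0.0579 to 0.105, 0.0726 to 0.107 and 0.0516 to 0.0576: C25H3.10 without replicate 2 or 3 of desiccated thymus or 1 or 2 of the cytoplasmic extract, F18E3.12 without any of the 6 libraries but cytoplasmic extract replicate 2, and ZK1290.14 without desiccated thymus replicate 1 or cytoplasmic extract replicate 2.

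The lower genes of smallest p changed less in size and held in every left-out fit. math-27, annotated as a pseudogene of the MATH domain family, stood at 30.3, 26.6 and 29.2 CPM with desiccated thymus, 44.5, 51.1 and 51.6 CPM with the cytoplasmic extract and 49.9, 51.5 and 55.8 CPM in the control (log2 fold change -0.77, SE 0.07, adjusted p = 0.000271). Y94H6A.10 stood at 146, 144 and 142 CPM and 179, 203 and 199 CPM, against 264, 269 and 261 CPM in the control (log2 fold change -0.42, SE 0.04, adjusted p = 0.000312). T28B8.1 stood at 42.9, 43.7 and 46.3 CPM and 68.7, 70.6 and 68 CPM, against 51.7, 60.8 and 61.9 CPM in the control (log2 fold change -0.64, SE 0.07, adjusted p = 0.000487). The order of the diets differed among the 3 genes. For math-27 only desiccated thymus was away from the control, for Y94H6A.10 both diets were below it in steps, and for T28B8.1 desiccated thymus was below and the cytoplasmic extract above it. Against the control, Y94H6A.10 differed by -0.87 (adjusted p = 1.74e-08) for desiccated thymus and -0.45 (adjusted p = 5.44e-05) for the cytoplasmic extract.

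Of 24 genes of autophagy and lysosomes, none was higher, the median was -0.01 and 2 were lower (8.33%, against 0.376% of all tested genes). lgg-1, which encodes the Atg8 and LC3 homolog of autophagosome membranes, stood at 412, 418 and 432 CPM with desiccated thymus, 461, 459.8 and 487 CPM with the cytoplasmic extract and 463, 464 and 476 CPM in the control (log2 fold change -0.16, SE 0.04, adjusted p = 0.0422). epg-9, the ATG101 homolog of the initiating kinase complex, stood at 36.3, 34.7 and 37.8 CPM and 46.6, 49.8 and 44 CPM, against 44.7, 43.2 and 49.4 CPM in the control (log2 fold change -0.37, SE 0.07, adjusted p = 0.0162). The differences were small and the libraries tight, and for both genes the cytoplasmic extract shared the range of the control. The call of lgg-1 was lost with library totals only (0.0884), in the fits of only the 6 libraries (0.0523) and of the 9 without the nuclear extract (0.0769) and in 10 left-out fits, all but those without control replicates 1 and 3 (0.0575 to 0.209), and that of epg-9 without any 1 library of desiccated thymus or cytoplasmic extract replicate 1 or 2 (0.0505 to 0.0961).

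Of the 12 protein genes of the mitochondrial genome, none was higher, the median was -0.14 and 1 was lower (8.33%, against 0.376% of all tested genes). COX2, which encodes subunit II of cytochrome c oxidase, stood at 749, 661 and 699.7 CPM with desiccated thymus, 818, 845 and 797 CPM with the cytoplasmic extract and 771, 759 and 802 CPM in the control (log2 fold change -0.22, SE 0.04, adjusted p = 0.024). The NADH dehydrogenase genes ND1 and ND2 differed by -0.19 (adjusted p = 0.143) and -1.29 (adjusted p = 0.268). COX2 lost its call without replicate 2 or 3 of desiccated thymus or 1 or 2 of the cytoplasmic extract (0.0733 to 0.123). Of 37 nuclear genes of the respiratory chain none passed, and the median was -0.05.

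F-box, MATH and BTB domain genes encode a large, variable set of adaptors for protein degradation. Of 347 tested, 2 were higher (0.576%), 3 were lower (0.865%) and the median was -0.04. Of all tested genes, 0.678% were higher and 0.376% lower, so these few calls do not set the family apart. Among the called members, math-27 and fbxa-162 are annotated as pseudogenes. Besides math-27, the called members were fbxa-72, at 4.83 ± 1.32 CPM with desiccated thymus and 2.06 ± 0.594 CPM with the cytoplasmic extract (log2 fold change 1.22, SE 0.26, adjusted p = 0.0316), fbxa-162, at 1.59 ± 0.267 CPM with desiccated thymus and 3.24 ± 0.116 CPM with the cytoplasmic extract (log2 fold change -1.03, SE 0.22, adjusted p = 0.0359), fbxc-58, at 4.87 ± 0.703 CPM with desiccated thymus and 8.48 ± 1.5 CPM with the cytoplasmic extract (log2 fold change -0.81, SE 0.18, adjusted p = 0.045), and btb-9, at 5.30 ± 0.159 CPM with desiccated thymus and 3.07 ± 0.0897 CPM with the cytoplasmic extract (log2 fold change 0.79, SE 0.15, adjusted p = 0.0227). Of 139 cuticle collagen genes, only col-143 passed, at 109 ± 6.27 CPM with desiccated thymus and 89.9 ± 1.97 CPM with the cytoplasmic extract (log2 fold change 0.27, SE 0.05, adjusted p = 0.021), and the median was 0.02 (-0.05 with library totals only, which also ended the call of col-143, 0.318). The calls of fbxa-162 and btb-9 were lost without any 1 of the 6 libraries of both diets (0.0733 to 0.166 and 0.0726 to 0.106), and that of fbxa-72 without any of these but desiccated thymus replicate 1 (0.0564 to 0.146). btb-9 also lost it with library totals only (0.0551). fbxc-58 lost its call in 10 left-out fits, all but those without control replicates 1 and 3 (0.0583 to 0.223), and in the 9 libraries without the nuclear extract (0.0856). For col-143 the call ended without replicate 1 or 3 of desiccated thymus or 1 or 2 of the cytoplasmic extract (0.0777 to 0.112). This gene was 0.719% of the collagen genes tested, near the 0.678% higher among all tested genes.

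The 44 lists held 1996 tested genes, and 29 lists had no called member. Cytosolic heat shock genes were 1 of these, with 20 tested and a median of -0.06. The small heat shock genes hsp-17, hsp-16.2 and hsp-16.41, those of smallest p, differed by -0.30 (adjusted p = 0.237), -0.68 (adjusted p = 0.365) and -0.72 (adjusted p = 0.367). The heat-inducible chaperone gene hsp-70 stood at 102, 64.3 and 92.2 CPM with desiccated thymus, 90.5, 151 and 115 CPM with the cytoplasmic extract and 245, 287 and 358 CPM in the control. Its libraries overlapped between the diets and were below the control in both. Against the control hsp-70 differed by -1.78 (adjusted p = 0.00706) for desiccated thymus and -1.32 (adjusted p = 0.0667) for the cytoplasmic extract, and between the diets by -0.46 (adjusted p = 0.664). aip-1, an arsenite-inducible gene, stood at 69.8, 62.4 and 68.4 CPM and 72.3, 78.7 and 80.9 CPM (log2 fold change -0.21, adjusted p = 0.0848), against 131, 122 and 127 CPM in the control, and T05A12.4 at 52.5, 58.9 and 61.6 CPM and 62.7, 64.5 and 63.8 CPM (log2 fold change -0.14, adjusted p = 0.493), against 29.1, 30.4 and 33.6 CPM. These 3 reference genes stood apart from the control under both diets and did not pass between them.

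No gene passed in the lists of hypodermis, muscle, neuron, sensory cilium, germline, eggshell or sperm genes, whose medians ran from -0.21 in the cilium list to 0.08 in the sperm list. elt-3, a GATA factor gene of the hypodermis, differed by 0.63 (adjusted p = 0.108). In the cilium list arl-3, a small GTPase gene, stood nearest to the threshold at 2.79 ± 0.508 CPM with desiccated thymus and 5.53 ± 0.749 CPM with the cytoplasmic extract (log2 fold change -0.98, adjusted p = 0.0595), and the intraflagellar transport genes osm-6 and osm-5 differed by -1.03 (adjusted p = 0.287) and -0.84 (adjusted p = 0.383). Summed marker levels overlapped between the diets for hypodermis (226 to 235 CPM against 211 to 238 with the cytoplasmic extract), muscle (686 to 789 against 679 to 847), neurons (293 to 304 against 299 to 316) and oocytes and eggshell (8310 to 8640 against 8150 to 8620). For the germline the sums were 3080 to 3170 CPM against 2980 to 3080, ranges that at most touch. Sperm genes were low and variable, with sums of 13.2 to 46.5 CPM against 1.72 to 37.6.

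Signalling, stress and nucleotide lists also held no called gene. Of 17 genes of insulin signalling, the FOXO factor gene daf-16 stood at 199, 180.5 and 196 CPM and 175, 172 and 158 CPM (log2 fold change 0.19, adjusted p = 0.0846), and ist-1, an insulin receptor substrate homolog, and dod-19 differed by -0.52 (adjusted p = 0.125) and 0.43 (adjusted p = 0.146). Of 17 genes of the endoplasmic reticulum unfolded protein response, the kinase gene pek-1, the factor gene xbp-1 and the chaperone gene enpl-1 differed by -0.28 (adjusted p = 0.0709), -0.15 (adjusted p = 0.0888) and -0.07 (adjusted p = 0.8). Of 24 purine and pyrimidine genes dpyd-1, pfas-1 and hprt-1 differed by 0.25 (adjusted p = 0.18), 0.30 (adjusted p = 0.212) and 0.16 (adjusted p = 0.307). The 77 ribosomal protein genes had a median of -0.02 and the 33 proteasome genes one of -0.02. A p above the threshold does not show that these levels were equal.

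**Figure D5:**
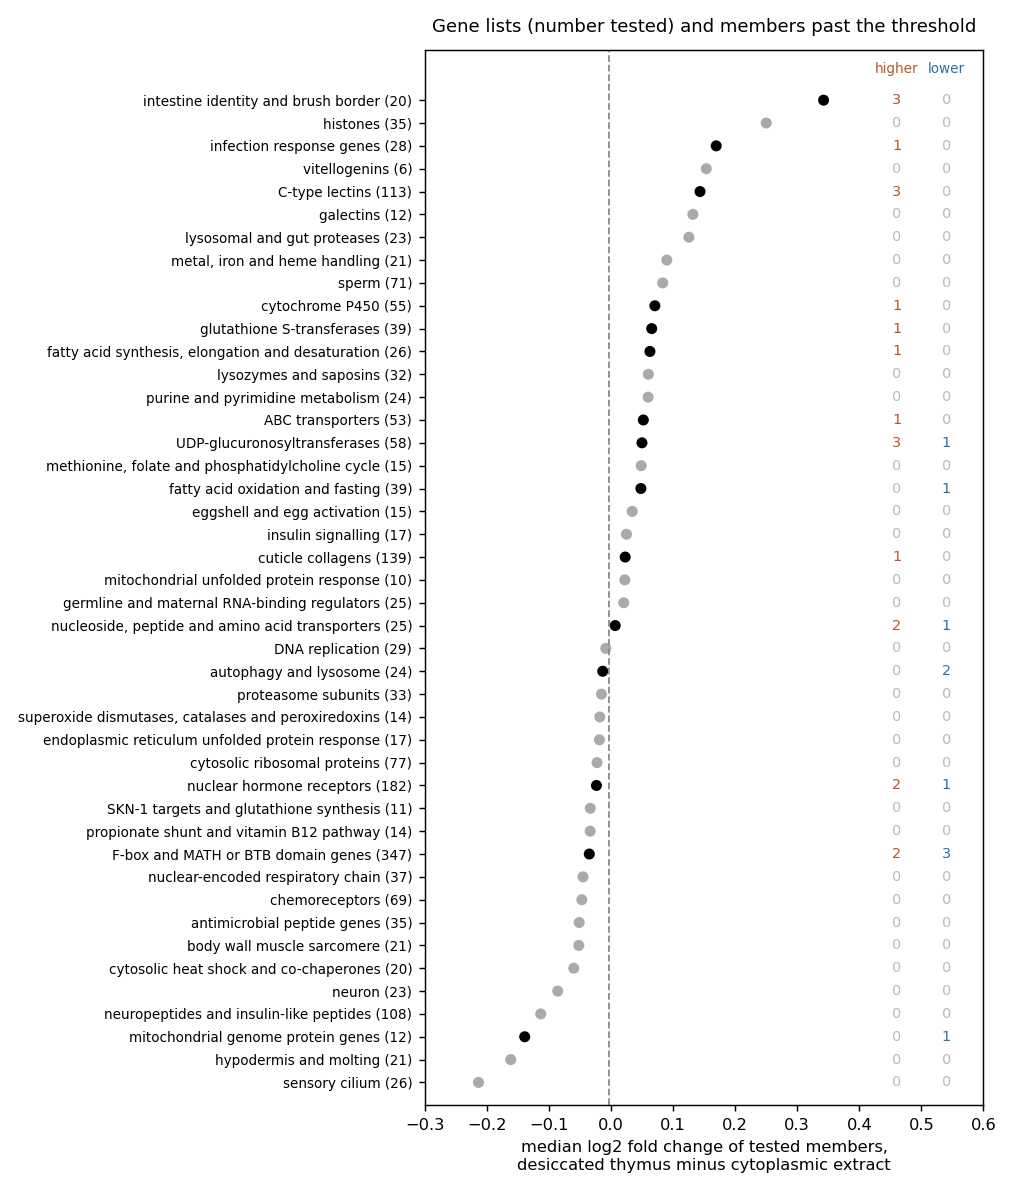
Median log2 fold change of the tested members of each of 44 gene lists (points; x axis, desiccated thymus minus cytoplasmic extract), with the number tested in brackets and the counts of members past the threshold at the right; the dashed line is the median of all tested genes. Black points are the 15 lists with a called member; the intestine list is highest at 0.34 and the cilium list lowest at -0.21.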

How the data were processed

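Whole-tissue RNA of adult C. elegans was enriched with oligo(dT) beads and sequenced, per the labels' protocols; the molecule field says nuclear RNA, which differs from the protocol. The authors deposited whole-number read counts per gene and the exon length of each gene in bases, which was not used for any value. Per the submitters' processing notes, the tools, with no version or role given, were Trimmomatic, STAR, featureCounts and DESeq2. The sources used here do not give the strand setting or how multiply matching reads were treated, which leaves near-identical and overlapping genes uncertain. Count columns are named by diet initials and a number. Each was matched to the single sample title with those initials and that number, an inference from names. Coordinates are of WBcel235, from a RefSeq gene table that matched 46925 of 46929 identifiers.

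Genes were kept by filterByExpr with a minimum count of 10, scaled by TMM and fitted with edgeR 4.0.16 in R 4.3.3 (robust quasi-likelihood, 12 libraries, 4 group means, 8 residual degrees of freedom; the biological coefficient of variation was 12.7%). The contrast was desiccated thymus minus cytoplasmic extract, two-sided, with Benjamini-Hochberg adjustment over 14610 genes and a threshold of 0.05 without one on fold. Every adjusted p in the text is from this test unless a difference from the control or another fit is named. Those used the same kind of test, adjusted over the genes tested in that fit. DESeq2 (1.42.0) is given only as counts of genes. Log2 CPM used a prior count of 2. The labels do not say whether replicates came from separate cultures, so the p-values reflect only the variation among these samples, which may be technical. Replicates differed by more than sampling noise (chi-square per degree of freedom of at least 5.6) and were counted separately. An exact permutation test of 3 against 3 libraries cannot give a two-sided p below 0.1.

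Single genes were named if their adjusted p was under 0.05, the libraries of the diets did not overlap and the higher group averaged at least 5 CPM: the 12 higher and 12 lower of largest change and the 3 of smallest p in each direction. From each list, up to 4 called members of largest change could be named, or the 3 of smallest p as values where at most 1 was called. The comparison, the members of the 44 lists and the genes named were chosen with earlier results of these data known. Alternatives were other scalings, filters, tools, samples in the fit, a replicate block and each of the 12 libraries left out. On simulated data of 14610 genes with 200 changed, the test recovered 27.3%, 43.3%, 60.7% and 84.7% of genes changed 1.25-, 1.5-, 2- and 4-fold, with 6 or 7 false calls in each of 3 draws.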

Additional observations from a re-analysis of the deposited data

How the results depend on the processing

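All 154 genes kept their direction under every alternative that still tested them, and none of the genes named reversed. For the fits with 1 library left out this was nearly fixed in advance, since the diets did not overlap in any of the 154. Counts moved more. From 154 genes, 99 higher and 55 lower, the count rose to 274 (179 and 95) with no filter on low counts, to 328 (212 and 116) with DESeq2, and to 270 (167 and 103) in a fit of only the 6 libraries, and with library totals only 49 were higher and 85 lower. The cause was not tested. RLE size factors gave 160, the stricter filter 175, leaving out ribosomal RNA genes 156, and the 9 libraries without the nuclear extract 130. Leaving out 1 of the 12 libraries gave 26 to 269 genes, 13 to 170 higher and 13 to 99 lower. With 1 library of a diet left out, that diet has 2 libraries, and the spread is shared over the groups. Same-numbered libraries of both diets deviated from their group means with correlations of -0.242, 0.249 and 0.321. Over all pairs of numbers these correlations ran from -0.438 to 0.369. So few values, from means of 3 libraries, cannot settle whether the numbers pair the samples. With the replicate number as a block the counts were 154 (93 and 61) in 12 libraries and 164 (104 and 60) in 6, and 132 and 95 of the 154 genes stayed called. Named genes that lost their call in the block fit of 6 included clec-174 (0.362), Y47H9C.1 (0.44), acs-2 (0.139), kpc-1 (0.154), T28F4.4 (0.126), DH11.2 (0.127) and oac-14 (0.0816). The lost calls given for single genes leave out both block fits. Not every library correlated best with its own number. In simulated data of this size, 27.3% of genes changed 1.25-fold and 60.7% of those changed 2-fold were recovered, so small differences may be missed. Desiccated thymus replicate 3, with its higher share of ribosomal RNA, left 38 called genes when it was left out, 37 of them among the 154. Of the called genes, 26 share exon bases with another gene, and in 14 that gene had over 10% of their counts.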

Other observations

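Several called genes of amino acid, sphingolipid and lipid droplet metabolism, and the factor gene klf-1, stood in no list of the report. They are described here, chosen after their values were seen. Other called genes of metabolism are left out, and no share of such genes was counted. gldc-1, which encodes the glycine decarboxylase of the glycine cleavage system, stood at 57.1, 56.8 and 55.7 CPM with desiccated thymus, 41.5, 36.2 and 40.9 CPM with the cytoplasmic extract and 33.9, 42 and 46.3 CPM in the control (log2 fold change 0.52, SE 0.09, adjusted p = 0.0127). oatr-1, the ornithine aminotransferase gene, was higher at 138 ± 8.37 CPM with desiccated thymus and 113 ± 1.81 CPM with the cytoplasmic extract (log2 fold change 0.29, SE 0.06, adjusted p = 0.0244). gln-3, a glutamine synthetase gene, was lower at 160.4 ± 15.5 CPM with desiccated thymus and 216 ± 22.1 CPM with the cytoplasmic extract (log2 fold change -0.43, SE 0.07, adjusted p = 0.0202), and so was the D-amino acid oxidase gene daao-1 at 8.93 ± 1.37 CPM with desiccated thymus and 13.4 ± 0.659 CPM with the cytoplasmic extract (log2 fold change -0.58, SE 0.12, adjusted p = 0.0339). For gln-3 the cytoplasmic extract lay above all 3 control libraries, and desiccated thymus overlapped them. sptl-2, a serine palmitoyltransferase gene of sphingolipid synthesis, was higher at 10.49 ± 0.224 CPM with desiccated thymus and 6.68 ± 1.18 CPM with the cytoplasmic extract (log2 fold change 0.65, SE 0.14, adjusted p = 0.0395), and spl-2, a sphingosine phosphate lyase gene, was higher at a low level, 2.81 ± 0.541 CPM with desiccated thymus and 0.834 ± 0.316 CPM with the cytoplasmic extract (log2 fold change 1.76, SE 0.30, adjusted p = 0.0119). dhs-3, which encodes a lipid droplet protein, was higher at 67.2 ± 3.04 CPM with desiccated thymus and 53.5 ± 3.79 CPM with the cytoplasmic extract (log2 fold change 0.33, SE 0.07, adjusted p = 0.025), and the Krüppel-like factor gene klf-1 was higher at 15.4 ± 1.19 CPM with desiccated thymus and 9.97 ± 1.25 CPM with the cytoplasmic extract (log2 fold change 0.63, SE 0.12, adjusted p = 0.0227). Each of these 8 calls was lost in 3 to 8 of the 12 fits with 1 library left out, with adjusted p of up to 0.182. With library totals only, oatr-1 (adjusted p 0.272), dhs-3 (0.202) and sptl-2 (0.0984) also lost theirs, as did gln-3 in the fit of only the 6 libraries (0.155) and sptl-2 in that of the 9 without the nuclear extract (0.0833).

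Among regulators that kept their call whichever library was left out, crtc-1, which encodes the CREB-regulated transcription coactivator, stood at 17, 17.5 and 21.4 CPM with desiccated thymus, 29.7, 29.6 and 27.9 CPM with the cytoplasmic extract and 25, 23.7 and 25.8 CPM in the control (log2 fold change -0.65, SE 0.09, adjusted p = 0.00532). odd-2, an odd-skipped zinc finger factor gene, stood at 3.55, 3.83 and 3.14 CPM and 1.13, 1.55 and 0.86 CPM, against 1.16, 1.65 and 1.15 CPM in the control (log2 fold change 1.56, SE 0.25, adjusted p = 0.0096). crtc-1 was lowest, and odd-2 highest, with desiccated thymus.

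Of the called genes, 4 pairs were next to each other among tested genes. With 1.05% of all tested genes called, how many such pairs a random placement would give was not tested. T22B7.7 and egl-13 on chromosome X (1.01 and 1.11), F20G2.5 and F53C11.1 on chromosome V (1.75 and 0.45) and Y4C6B.3 and Y4C6B.2 on chromosome IV (-0.60 and -1.1) differed in the same direction. F09F7.5 stood at 25.8, 24.3 and 26.4 CPM with desiccated thymus and 18.5, 19.4 and 19.9 CPM with the cytoplasmic extract, and its neighbour F09F7.6 on chromosome III at 10.9, 13.6 and 16.16 CPM and 22.5, 19.3 and 23.7 CPM, so they differed in opposite directions (log2 fold change 0.41, SE 0.08, adjusted p = 0.028 for F09F7.5 and log2 fold change -0.69, SE 0.14, adjusted p = 0.0336 for F09F7.6). F09F7.5 lost its call without any 1 of the 6 libraries of both diets (0.057 to 0.115) and with library totals only (0.159), and F09F7.6 without any of these but desiccated thymus replicate 3 (0.0602 to 0.155) and in the 9 libraries without the nuclear extract (0.0506). Y4C6B.3 lost its call without any 1 of the 6 libraries (0.0633 to 0.134), and F53C11.1 without any of these but cytoplasmic extract replicate 3 (0.0529 to 0.118) and with library totals only (0.0808). The 3 called kola genes, kola-2 (0.33), kola-4 (0.26) and kola-5 (0.31), were all higher. They were picked after their values were seen, and no share of the kola genes tested is given to set beside 0.678% of all tested genes. All 3 lost their call with library totals only (adjusted p 0.115, 0.331 and 0.121). An overlap of kola-2 exons with F39C12.1 on the opposite strand (mean counts of 5511 and 1526) makes the value of kola-2 uncertain. kola-2 also lost it without any of the 6 libraries but cytoplasmic extract replicate 3 (0.0505 to 0.0633), and kola-4 without replicate 1 or 3 of desiccated thymus or 2 or 3 of the cytoplasmic extract (0.0505 to 0.0626). Chromosome X held 22 higher (1.05%) and 7 lower (0.335%) genes of 2092 tested, and chromosome I held 6 higher (0.255%) and 8 lower (0.34%) of 2350. Of all tested genes, 0.678% were higher and 0.376% lower.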
